A study of Mus musculus with 3 samples.

Results

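Hox genes encode homeodomain transcription factors that give cells of the embryo their position along the head-to-tail axis. They lie in 4 clusters, HOXA to HOXD, and are numbered by paralogue group, the genes of low number (anterior) being used early and toward the head and those of high number (posterior) late and toward the tail. In embryonic stem cells (ESCs) the clusters are known to be held at low levels by Polycomb repression, and retinoic acid, acting through its receptors, is a known inducer. All genes whose symbol is Hox followed by a, b, c or d and a number only were taken, which gave 39 of the 49997 genes counted, with 11 in HOXA on chromosome 6, 10 in HOXB on chromosome 11, 9 in HOXC on chromosome 15 and 9 in HOXD on chromosome 2.

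The transcripts had been measured by RNA immunoprecipitation sequencing (RIP-seq), in which RNA that comes down with a protein is sequenced beside input RNA. The protein was YTHDF2, a reader of N6-methyladenosine (m6A) that promotes decay of the RNA it binds, and the question was which RNAs associate with it in DUX-activated ESCs. All 3 libraries, 1 input and 2 YTHDF2 immunoprecipitation (IP) libraries, came from E14 mouse ESCs given doxycycline (Dox) for 24 h. Per the study, its ESC system carries a Dox-inducible Dux transgene and a tdTomato reporter driven by the Mervl promoter, and Dox moves part of the cells toward a state like that of the 2-cell (2C) embryo.

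No library without Dox and no IP with a control antibody was analysed here, so enrichment below means IP over input in Dox-treated cells only. The labels do not say whether the 2 IP libraries came from separate cultures, so the p-values measure only the spread between these 2 samples, which may be technical. The input had no replicate. Totals lay between 35259827 and 36986994 counts per library. The table counted each mate of a read pair on its own, so a count of 4 can stand for as few as 2 fragments. Intervals given here cover counting error only, with each mate taken as independent, and are therefore too narrow. Where a gene is given with 3 counts, they are those of the input, IP replicate 1 and IP replicate 2, in that order.

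Identity of the cells was checked with marker lists. All 10 ESC markers were tested and summed to 8886, 10056 and 9983 CPM, which is counts scaled to a common library total, in the same order of libraries. All 7 markers of the 2C-like state were also tested and summed to 1710, 2828 and 2816 CPM. Of 12 fibroblast markers, listed because feeder cells express Hox genes, 5 were tested, the sums being 47.5, 86.5 and 81.2 CPM. These were Thy1 (994, 498 and 543 counts), Twist1 (301, 1544 and 1434), Pdgfrb (251, 749 and 623), Pdgfra (121, 189 and 243) and Col1a1 (75, 57 and 62). The defining genes Col3a1 and Dcn had 0 counts in every library. Of 15 markers of differentiating cells, 13 were tested, with sums of 119, 248 and 231 CPM. The largest were Tubb3 (2596, 4799 and 4708 counts), Eomes (922, 1891 and 1862) and Sox1 (374, 1285 and 1175). T (47, 43 and 12) and Pax6 (111, 106 and 97) had fewer counts in both IP libraries than in the input. The sums of every marker list, ESC and 2C-like included, were thus higher in both IP libraries than in the input, as was the Hox sum. The part of fibroblasts or differentiating cells in the Hox values was not tested. In such bulk samples a small number of cells with much Hox RNA and many cells with little cannot be told apart.

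Most Hox genes were detected, at low levels. With detection set at more than 3 counts in a library, the number of members detected was 35 for the input and 35 and 34 for the IP libraries, and 32 (82.1%) were detected in all 3 libraries. Of all genes in the table, 36.9% were detected in all 3. By cluster, detection in all 3 libraries held for all 9 HOXD members, 9 of 11 HOXA members, 7 of 10 HOXB members and 7 of 9 HOXC members. Asking for at least 10 counts left 8 members of HOXA, 5 of HOXB, 3 of HOXC and 7 of HOXD. The wide detection thus rested in part on very few reads, and 8 members had exactly 4 counts in the input.

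Of the 6 members too low to test, 3 lay in HOXB and 3 in HOXC. Hoxb5 had 0 counts in every library, and its neighbour Hoxb6 had 2, 0 and 1. Both are trunk-level genes. Hoxb1, a hindbrain gene that responds directly to retinoic acid in other settings, had 4 counts in the input and 0 in each IP library. Hoxc5 had 4, 2 and 2 counts, Hoxc8 4, 4 and 8, and Hoxc11 4, 5 and 0. Hoxa6 and Hoxa11 went the other way, with 0 counts in the input and at least 16 in each IP library. A count of 0 was given a floor of 3 counts, or 0.0811, 0.0851 and 0.0836 CPM in the input and IP replicates 1 and 2. With mates counted on their own, 3 missed fragments could give more than 3 counts, so folds over this floor may be too high.

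**Figure D1:**
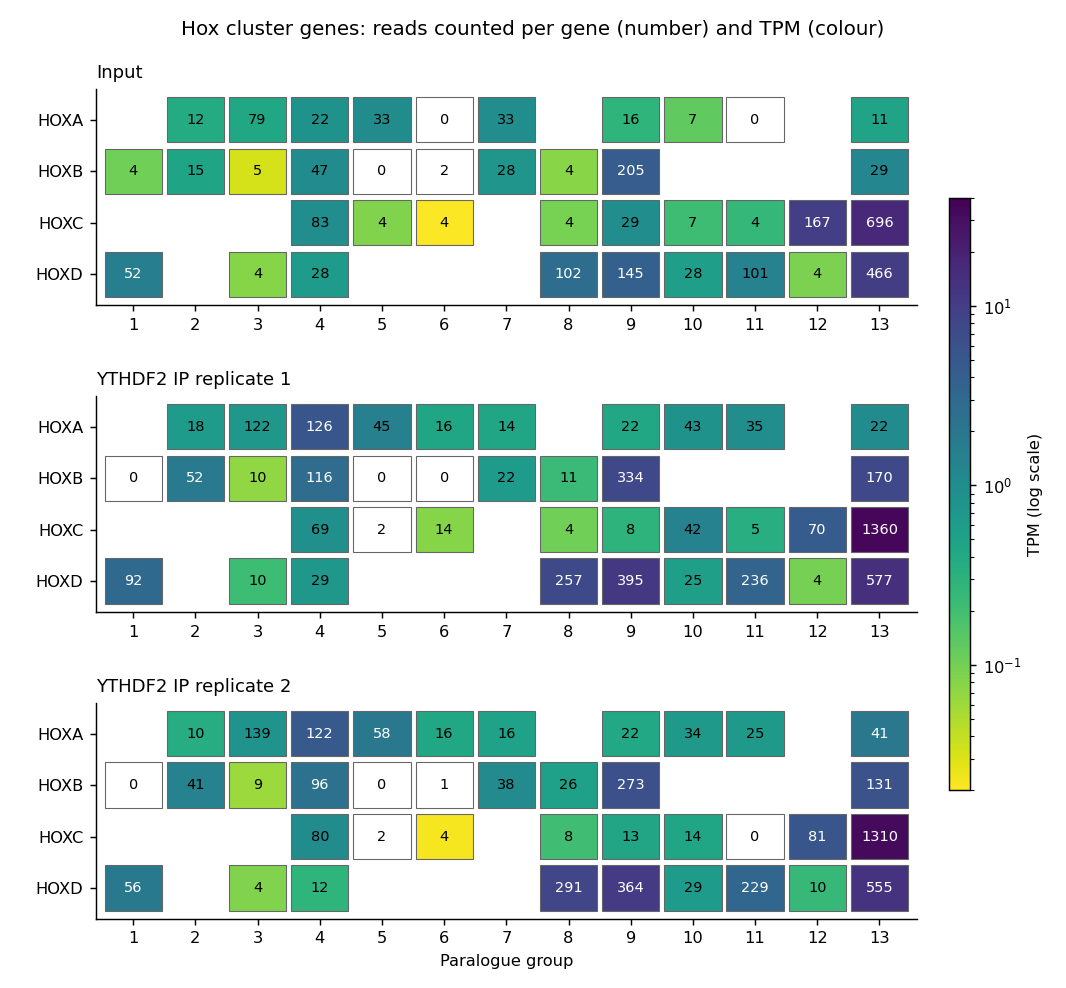
Each square is 1 Hox gene, placed by cluster (rows) and paralogue group (columns), for the input and for each YTHDF2 IP library. The number is the count of reads, the colour is TPM on a log scale, white marks 3 counts or fewer, and gaps are genes that mice lack or that are not drawn here. The darkest squares are Hoxc13 and Hoxd13 in each library, while Hoxb5 and Hoxb6 are white throughout.

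The posterior genes carried most of the Hox reads. Groups 9 to 13 held 72% (70.3 to 73.7, 95% Wilson interval) of Hox counts in the input, and 72.2% (70.8 to 73.4) and 71.1% (69.7 to 72.4) in IP replicates 1 and 2. Hoxc13 and Hoxd13 together made up 43.7%, 41.7% and 42.3% of Hox counts. The posterior share in the RNA brought down with YTHDF2 thus lay within the interval of the input share. Anterior genes held 13.2% (12 to 14.5), 12.2% (11.3 to 13.2) and 11.4% (10.5 to 12.4). Central genes held 14.8% (13.5 to 16.2), 15.6% (14.6 to 16.7) and 17.5% (16.4 to 18.6). In IP replicate 2 the anterior share was thus lower and the central share higher than in the input. As the intervals take mates as independent and are too narrow, whether these shares differ could not be told. All 39 genes summed to 2660, 4640 and 4404 counts, which are 0.00719% (0.00692 to 0.00747), 0.0132% (0.0128 to 0.0135) and 0.0123% (0.0119 to 0.0126) of each library.

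On a scale that allows for gene length, counts divided by exonic length and scaled to a common total (TPM), Hoxc13 led in every library with 16.5, 35.1 and 33.1 TPM. Hoxc13 is best known for its part in hair and nail formation. Hoxd13, a gene of digit and urogenital development, followed with 10.4, 14.1 and 13.3 TPM. The next in the input were Hoxc12 at 9.98 TPM, Hoxb9 at 4.37 TPM and Hoxd9 at 3.97 TPM. In the IP libraries Hoxd9 came after Hoxc13 and Hoxd13 with 11.8 and 10.7 TPM, and below it Hoxd8 (7.47 and 8.29 TPM), Hoxb13 (7.79 and 5.89 TPM) and Hoxb9 (7.76 and 6.22 TPM) overlapped and had no order. With 1 input library the order of levels in the input had no replicate check.

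The members share the homeobox, the stretch that encodes the DNA-binding homeodomain, which raises the question of whether reads of one member could be counted for another. A homeobox was found in the exons of all 39 genes. The 4 genes of group 13 are shown because, of all members, their homeoboxes are the most like that of Hoxc13, the most abundant gene. Sequences are from GRCm38.p6 and were read 5′ to 3′ on the strand of the gene, namely chr15:102927210-102927389 (+) for Hoxc13, chr6:52258928-52259107 (-) for Hoxa13, chr2:74669930-74670109 (+) for Hoxd13 and chr11:96196020-96196199 (+) for Hoxb13, all in coding sequence of the last exon. Capitals mark bases that differ from Hoxc13.
Hoxc13 homeobox: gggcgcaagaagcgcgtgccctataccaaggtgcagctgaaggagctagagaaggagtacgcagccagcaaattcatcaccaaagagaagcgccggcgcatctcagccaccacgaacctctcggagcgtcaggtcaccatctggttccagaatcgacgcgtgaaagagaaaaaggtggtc
Hoxa13 homeobox: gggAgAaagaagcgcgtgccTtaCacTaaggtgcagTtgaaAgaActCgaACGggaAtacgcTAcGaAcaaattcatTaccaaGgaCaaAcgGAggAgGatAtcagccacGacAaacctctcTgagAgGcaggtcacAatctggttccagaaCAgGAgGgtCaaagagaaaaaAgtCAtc
Hoxd13 homeobox: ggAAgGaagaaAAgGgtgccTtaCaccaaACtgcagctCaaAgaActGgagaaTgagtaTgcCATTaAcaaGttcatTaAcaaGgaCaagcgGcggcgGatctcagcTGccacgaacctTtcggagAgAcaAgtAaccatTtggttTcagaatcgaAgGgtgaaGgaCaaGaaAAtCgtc
Hoxb13 homeobox: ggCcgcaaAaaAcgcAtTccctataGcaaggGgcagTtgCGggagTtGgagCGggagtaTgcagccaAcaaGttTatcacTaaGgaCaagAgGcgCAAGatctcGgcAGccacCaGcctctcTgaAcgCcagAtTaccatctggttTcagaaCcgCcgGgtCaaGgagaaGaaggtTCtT

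Relative to Hoxc13, 41 bases differed in Hoxa13 (77.2% identity), 45 in Hoxd13 (75%) and 47 in Hoxb13 (73.9%), and the differences are spread along the whole stretch. Across the exons of the 741 pairs of members, the longest run of identical bases between genes at separate loci was 52 bases, between Hoxa6 and Hoxb4. Next came 50 bases between Hoxb9 and Hoxc6. Both are shorter than the read length of 150 bases, and reads with several mapping places had not been counted. Hoxd10 and Hoxd11 overlap on 85 bases of exon of the same strand, where reads belong to neither in the table.

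Tested Hox transcripts more often lay above than below the input in the YTHDF2 IP. Of the 39 members, 33 passed the filter on low counts and were tested with edgeR over all 19601 tested genes. Of these, 10 were enriched (adjusted p-value under 0.05 and fold change over 2), or 30.3%, where 15.0% of all tested genes were enriched, and 1 was depleted, where 13.0% of all tested genes were depleted. The enriched genes were Hoxa4, Hoxa6, Hoxa10, Hoxa11, Hoxb2, Hoxb4, Hoxb13, Hoxd8, Hoxd9 and Hoxd11, and the depleted gene was Hoxc12. The count of tested members above the input in both IP libraries was 22 (66.7%), beside 44.2% of all tested genes, and 5 lay below it in both, beside 45.3%. The median log2 fold change was 0.75 over the tested members, with quartiles of 0.24 and 1.47, and 0.0063 over all tested genes, with quartiles of -0.72 and 0.81.

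The filter bears on these counts. Only 24 members passed it by their input level alone (at least 0.279 CPM), of which 7 were enriched (29.2%) and 1 depleted, and the other 9 passed only through the IP libraries, where they had to be high. Hoxa6, Hoxa10 and Hoxa11 are the enriched genes among those 9. Over the 24 members the median log2 fold change was 0.50, and 16 (66.7%) lay above the input in both IP libraries and 5 below it in both. Of all 17732 genes that passed by their input level alone, 14.4% were enriched, 41.2% lay above the input in both, and the median was -0.11. Low counts were the rule, since the mean count over the libraries had a median of 29.3 for tested members and 391 for all tested genes, and 31 of the 33 lay under the latter. With a fixed dispersion of 0.1 in place of that estimated from the 2 IP libraries, 5 members were enriched and 0 depleted, beside 8.05% and 7.81% of all genes under that setting. Of these 5, only Hoxa4 and Hoxb13 were among the 24 members, the others being Hoxa6, Hoxa10 and Hoxa11. With DESeq2, 7 members were enriched and 0 depleted, beside 12.5% and 10.6%. Hoxa6 and Hoxa11, which passed the filter only through the IP libraries, are among those 7. At an unadjusted p-value under 0.05 in edgeR, 12 of the 33 members were higher and 1 lower, beside 30.2% and 30.5% of all tested genes. Hoxa6, Hoxa10 and Hoxa11 are again among the 12.

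**Figure D2:**
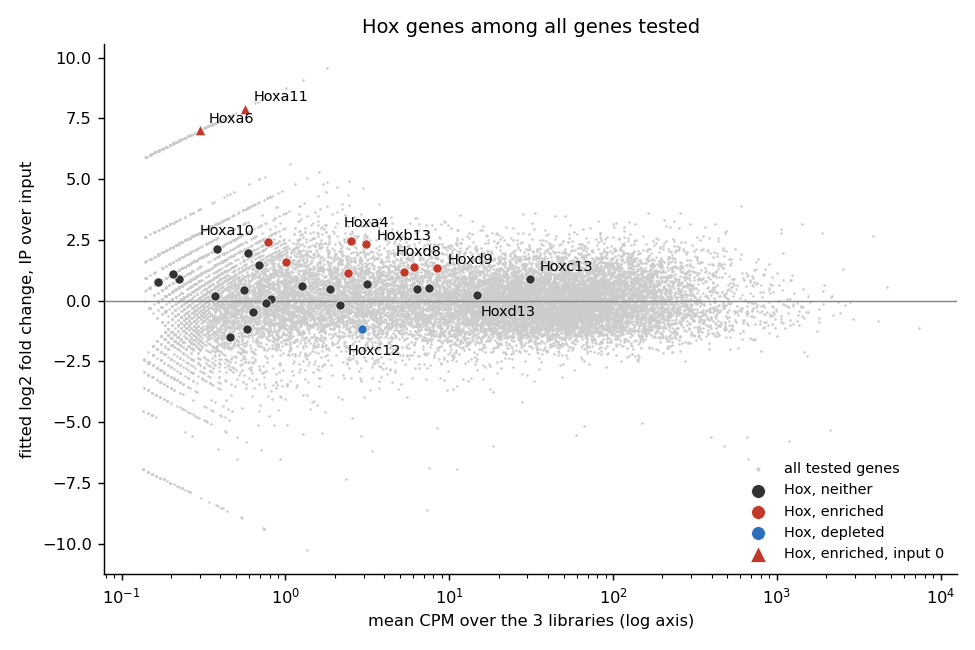
Fitted log2 fold change of IP over input (vertical axis) against mean CPM over the 3 libraries (log axis) for all 19601 tested genes (grey) and the 33 tested Hox genes (coloured by call). The Hox genes lie left of most of the cloud, up to 31.3 mean CPM for Hoxc13, and more of them lie above 0 than below. Triangles are Hoxa6 and Hoxa11, whose height depends on the prior count because the input was at 0.

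Among the posterior genes, 5 of 15 tested members were enriched and 1 was depleted, beside 15.0% and 13.0% of all tested genes. Of the 11 that passed the filter by their input level alone, 3 were enriched and 1 depleted, beside 14.4% and 14.3% of all genes that passed in this way, with a median log2 fold change of 0.53. Hoxc13 (chr15:102921131-102928814, + strand, GRCm38.p6) had 696, 1360 and 1310 counts. Both IP values lay far above the input, and the difference passed the test (adjusted p = 2.53e-08, edgeR), but at 1.87-fold (log2 0.90 ± 0.119, SE) it stayed under the fold change of 2 set for a call. Over the alternatives the adjusted p of Hoxc13 ran from 3.85e-10 to 0.298, the latter with the fixed dispersion. Hoxd13 had 466, 577 and 555 counts and did not pass (adjusted p = 0.187).

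Hoxb13 (chr11:96194316-96196610, + strand), a tail-bud and prostate gene that lies far from the rest of HOXB, rose from 29 counts to 170 and 131. This was 5.04-fold, or 2.33 ± 0.398 on the log2 scale (adjusted p = 3.69e-06, edgeR). Hoxa10 and Hoxa11 are both needed for the uterus, and Hoxa11 also for the forearm. Hoxa10 had 7, 43 and 34 counts, a 5.28-fold difference, or 2.40 ± 0.799 on the log2 scale (adjusted p = 0.00985, edgeR), with adjusted p over the alternatives from 0.00849 to 0.074, the latter with DESeq2. Hoxa11 had 0, 35 and 25 counts. Its mean IP level was 9.74-fold over the floor of 3 input counts (adjusted p = 0.000384, edgeR), a bound that may be too high because mates were counted singly. An antisense gene, Hoxa11os, covers 24.8% of the exonic bases of Hoxa11 and had 0, 10 and 1 counts. As strand was not used in counting, reads within the overlap were counted for neither, and other reads went by position alone. Hoxa10 and Hoxb2 also share exonic bases with antisense genes, which had 0 counts. Hoxd8 shares 3.94% of its exonic bases with the antisense gene Gm38462, which had 1, 2 and 8 counts.

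In HOXD, Hoxd9 (chr2:74697763-74700208, + strand) had 145, 395 and 364 counts, and Hoxd11, a partner of Hoxa11 in forearm and kidney, had 101, 236 and 229. In both genes each IP library was more than 2-fold over the input after scaling. The log2 fold changes were 1.35 ± 0.22 for Hoxd9 (adjusted p = 1.63e-06, edgeR) and 1.16 ± 0.277 for Hoxd11 (adjusted p = 0.00042). Neither passed with the fixed dispersion, which gave the highest adjusted p over the alternatives (1.64e-07 to 0.11 for Hoxd9 and 0.00017 to 0.179 for Hoxd11), and removing the trend of fold change on GC content lowered Hoxd9 to 0.69.

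Hoxc12 (chr15:102936826-102938609, + strand) was the only depleted member called. It lies beside Hoxc13 and, like it, is expressed in the hair follicle, and it had 167, 70 and 81 counts. It was 2.27-fold lower in the IP (log2 -1.18 ± 0.323, adjusted p = 0.00179, edgeR), with both libraries under the input. The call was lost with DESeq2 and with the fixed dispersion, the adjusted p running from 0.000706 to 0.134 over the alternatives, and the log2 fold change was -1.99 with the GC trend removed. The neighbours Hoxc13 and Hoxc12, both among the 3 highest by TPM in the input, had log2 ratios of 0.94 and -1.28 in IP replicate 1 and 0.86 and -1.09 in IP replicate 2.

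The other posterior members were not called. Hoxb9, a gene of the rib cage, had 205, 334 and 273 counts and passed the test at only 1.44-fold (adjusted p = 0.0427, edgeR). It did not pass with DESeq2 or with the fixed dispersion, the adjusted p over the alternatives running from 0.0207 to 0.58. Hoxc9 lay below the input in both IP libraries without passing, with 29, 8 and 13 counts (log2 -1.50, adjusted p = 0.16, edgeR). Hoxc10 had 7, 42 and 14, so that its IP libraries lay far apart. Hoxa13 had 11, 22 and 41 counts. Hoxa9 had 16, 22 and 22 counts and Hoxd10 had 28, 25 and 29 (adjusted p = 0.703 and 0.92, edgeR). Hoxd12 and Hoxc11 had at most 10 counts in any library.

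Among the central genes, groups 4 to 8, 4 of 11 tested members were enriched in edgeR, beside 15.0% of all tested genes. In edgeR 0 were depleted, beside 13.0% of all tested genes, 0 were lower at an unadjusted p-value under 0.05, beside 30.5%, and 0 were depleted in DESeq2, beside 10.6%. Of the 8 that passed the filter by their input level alone, 3 were enriched, beside 14.4% of all genes that passed in this way, with a median log2 fold change of 0.33. Hoxa4 (chr6:52189682-52191703, - strand) had 22, 126 and 122 counts. This was a 5.46-fold difference, or 2.45 ± 0.436 on the log2 scale (adjusted p = 7.03e-06, edgeR), and the 2 IP libraries gave nearly the same ratio (2.46 and 2.39). Hoxb4, its HOXB paralogue and a gene used to expand blood stem cells, had 47, 116 and 96 counts, a log2 fold change of 1.13 ± 0.397 (adjusted p = 0.014, edgeR). That call did not hold with DESeq2 or with the fixed dispersion (adjusted p from 0.0102 to 0.209 over the alternatives), and the log2 fold change was 0.84 with the GC trend removed. The remaining genes of this paralogue group were not called, Hoxc4 having 83, 69 and 80 counts and Hoxd4 28, 29 and 12.

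Hoxd8, a trunk-level gene, rose from 102 counts to 257 and 291 (log2 1.38 ± 0.263, adjusted p = 2.03e-05, edgeR). Over the alternatives its adjusted p ran from 4.21e-06 to 0.104, the latter with the fixed dispersion. Hoxa6, which helps to pattern the thorax, had 0, 16 and 16 counts, at least 5.19-fold higher (adjusted p = 0.0173). Its HOXA neighbours were not called. Hoxa5, a gene of lung and neck development, had 33, 45 and 58 counts, and Hoxa7 had 33, 14 and 16, below the input in both IP libraries (log2 -1.17, adjusted p = 0.2). Hoxb8 had 4, 11 and 26 counts (adjusted p = 0.157), and Hoxb7 had 28, 22 and 38. Hoxc6 (4, 14 and 4) was close to the floor.

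Among the anterior genes, groups 1 to 3, 1 of 7 tested members was enriched, near the 15.0% of all tested genes. Of the 5 that passed the filter by their input level alone, it was also 1, beside 14.4% of all genes that passed in this way, with a median log2 fold change of 0.47. This was Hoxb2, a hindbrain gene that acts in the facial motor nucleus, with 15, 52 and 41 counts (log2 1.59 ± 0.634, 3-fold, adjusted p = 0.0314, edgeR). The call was lost with DESeq2, with halved counts and with the fixed dispersion (adjusted p from 0.0254 to 0.182 over the alternatives). Hoxa3, needed for thymus and parathyroid, had 79, 122 and 139 counts (adjusted p = 0.0831). Hoxd1 had 52, 92 and 56 counts, Hoxa2 had 12, 18 and 10, and Hoxb3 and Hoxd3 had at most 10.

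**Figure D3:**
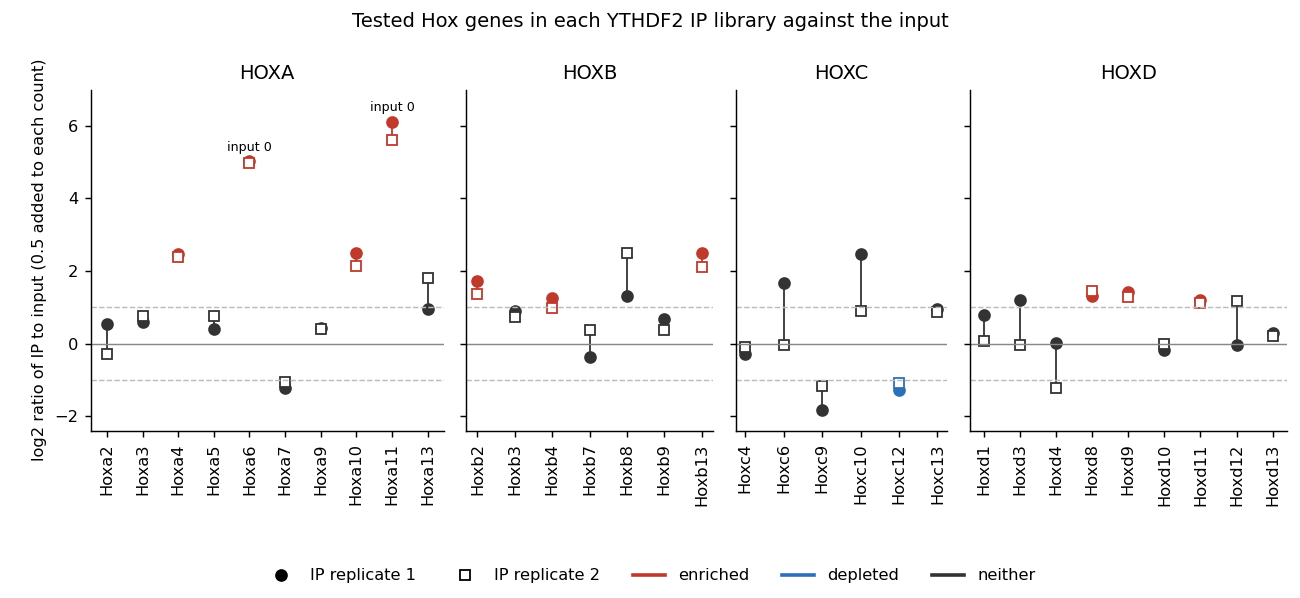
Log2 ratio of each YTHDF2 IP library to the input after TMM scaling (vertical axis, 0.5 added to each count) for tested Hox genes, in order of paralogue group within each cluster, with 1 tested gene not drawn. Circles are IP replicate 1 and squares IP replicate 2, dashed lines mark a 2-fold difference, and the colour gives the call. Pairs of points in called genes include Hoxa4 at 2.46 and 2.39 and Hoxa11 at 6.12 and 5.62, and those in uncalled genes run from close (Hoxa9 at 0.42 and 0.40) to far apart (Hoxc6 at 1.66 and -0.05). The heights of Hoxa6 and Hoxa11 depend on the value added, as the input was at 0.

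By cluster, the call was made for 4 of 11 tested members of HOXA, 3 of 7 of HOXB and 3 of 9 of HOXD as enriched, and for 0 of the 6 tested members of HOXC in edgeR, where 15.0% of all tested genes were enriched. Among members that passed the filter by their input level alone, this was 1 of 8 for HOXA (Hoxa4), 3 of 5 for HOXB, 3 of 7 for HOXD and 0 of 4 for HOXC, beside 14.4% of all genes that passed in this way. HOXA, at 12.5%, was near that share. At an unadjusted p-value under 0.05, 1 of the 6 HOXC members, Hoxc13, was higher and 1, Hoxc12, lower, beside 30.2% and 30.5% of all tested genes. DESeq2 called 0 HOXC members enriched and 0 depleted, beside 12.5% and 10.6%. The differences between clusters were not tested, since members are not replicates. Summed over each cluster, HOXA had 393, 726 and 727 counts, HOXB 339, 715 and 615, HOXC 998, 1574 and 1512, and HOXD 930, 1625 and 1550. The IP was above the input in both libraries for every cluster. After scaling, the mean log2 ratio was 0.85 ± 0.01 (SD, n = 2) for HOXA, 0.93 ± 0.17 for HOXB, 0.59 ± 0.06 for HOXC and 0.73 ± 0.06 for HOXD. Both ratios of a cluster share the 1 input library, so these SDs leave out the error of the input and do not rank the clusters. HOXC rested on Hoxc13, which held 69.7% of its input counts. Without Hoxc13 the HOXC sum turned to -0.58 ± 0.07, below the input in both IP libraries, with Hoxc12 holding 167 of the remaining input counts. Without both genes the sums were 135, 144 and 121 counts, a mean log2 ratio of -0.07 ± 0.19, with one IP library on each side of the input. Leaving out the most abundant member raised HOXB to 1.39 and HOXD to 1.10.

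Base composition and a core motif of m6A were set beside the fold changes as features the choice of genes had not used. The exons of tested members had a median GC content of 53.5%, where all tested genes had 49.7%, and 27 of the 33 lay above the latter. Over all tested genes with sequence (n = 19554), fold change and GC content were correlated (r = 0.268, Spearman's rho = 0.314), whereas over the 33 tested members r was 0.032 and rho 0.184. Genes are not independent replicates, and the points share the same 3 libraries. With the GC trend over all genes removed, the median log2 fold change of the members was 0.55 and that of all tested genes -0.0306. At the adjusted p-values of the main fit, which were kept, 8 members were then enriched, beside 13.5% of all genes so treated.

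The motif GGACT, the commonest form of the sequence that m6A is placed in, was searched on the sense strand of the exons only. It was present in 33 of the 39 members and in 69.3% of the 49632 genes with sequence, and among tested genes in 27 of 33 members and in 88% of all. Its density had a median of 0.943 matches per kb of exon in tested members and 1.01 in all tested genes. The correlation of density with fold change was -0.24 (rho = -0.263) over the tested members, -0.152 (rho = -0.2) over the 31 of them with input counts, and 0.103 (rho = 0.144) over all tested genes. Of the 10 enriched members, Hoxa4, Hoxa11 and Hoxb4 held no match, nor did the depleted Hoxc12. A match is a description of the sequence, and m6A itself was not measured in these libraries.

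Hoxb13 is shown because it joins a 5.04-fold difference to a density of 2.19 per kb, and Hoxc13 because it is the most abundant member and holds 1 match. The 3 matches of Hoxb13 lie in its 3′ UTR, with the first base of the motif 65, 76 and 130 bases after the last coding base, at chr11:96196284-96196308, chr11:96196295-96196319 and chr11:96196349-96196373 (+). That of Hoxc13 lies in its 3′ UTR 329 bases after the last coding base, at chr15:102927744-102927768 (+). Each window has 25 bases of GRCm38.p6 with the motif in capitals, and the first pair of Hoxb13 windows overlap.
Hoxb13 site 1: gccagggccaGGACTggcagaggac
Hoxb13 site 2: gactggcagaGGACTcggctgaggg
Hoxb13 site 3: tctgagttctGGACTgttcctcggg
Hoxc13 site: taccaaagcaGGACTggggaattcc

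Over all members, 117 matches had a whole window within 1 exon, of which 42 lay in coding sequence, 40 in 3′ UTRs and 35 in 5′ UTRs. Hoxd9, with 5 matches, had 1 in the 5′ UTR, 2 in coding sequence and 2 in the 3′ UTR.

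**Figure D4:**
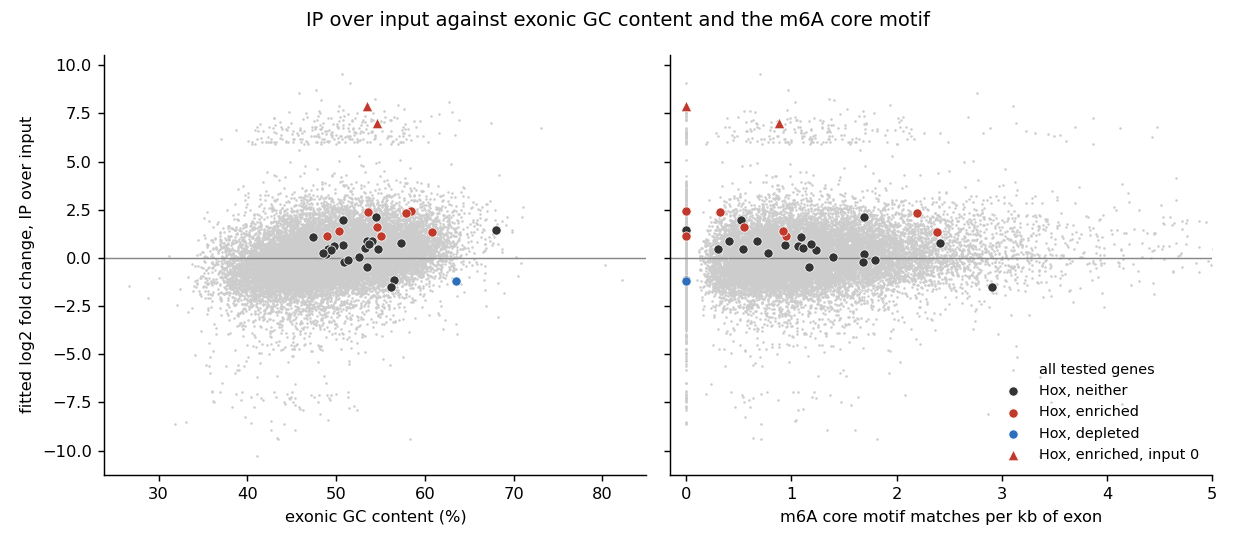
Fitted log2 fold change of IP over input (vertical axis) against exonic GC content in percent (left) and matches to the m6A core motif per kb of exon (right), for all tested genes (grey) and tested Hox genes (coloured by call, triangles where the input was at 0). The right axis ends at 5 per kb, leaving out 43 other genes and no Hox gene. Hox genes lie in the right part of the GC cloud, and enriched members span motif densities from 0 to 2.38 per kb.

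The genes that work with or above the Hox genes were described from lists chosen with earlier results known. TALE proteins (Pbx, Meis and Pknox) bind DNA together with Hox proteins. All 9 were tested, and 2 were enriched and 0 depleted both in edgeR, beside 15.0% and 13.0% of all tested genes, and in DESeq2, beside 12.5% and 10.6%. At an unadjusted p-value under 0.05 in edgeR, 4 were higher and 1 lower, beside 30.2% and 30.5%. The median log2 fold change was 0.39. Meis2 had 2743, 6773 and 6830 counts (log2 1.27 ± 0.0681, adjusted p = 1.01e-18, edgeR), and Pknox2 had 149, 651 and 509 (log2 1.92 ± 0.202, adjusted p = 1.91e-10). Both stood above the input in each IP library.

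Of the 8 ParaHox and Evx genes, the closest relatives of the Hox clusters, 6 were tested and 4 enriched, beside 15.0% of all tested genes. Cdx4, Gsx1 and Pdx1 passed the filter only through the IP libraries, which leaves 3 tested by their input level, of which 2, Cdx1 and Gsx2, were enriched, beside 14.4% of all genes that passed in this way. Cdx1, which activates Hox genes in the trunk, had 135, 1118 and 1120 counts (8.06-fold, adjusted p = 1.44e-18, edgeR). Gsx1, a gene of neural progenitors, had 0, 20 and 21 counts, 6.65-fold over the floor of 3 input counts (adjusted p = 0.00533, edgeR). Its relative Gsx2 had 58, 134 and 147 (2.35-fold, adjusted p = 0.00271, edgeR). Pdx1, a pancreatic gene, had 6, 21 and 65 counts, with IP libraries far apart (adjusted p = 0.00461). Evx1 and Evx2, which flank HOXA and HOXD, had 18, 16 and 22 counts and 2, 0 and 0.

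Of 18 genes of the retinoic acid pathway, 15 were tested, and 2 were enriched, near the background share of 15.0% in edgeR and 12.5% in DESeq2, and 0 were depleted with either tool, beside 13.0% and 10.6%. At an unadjusted p-value under 0.05 in edgeR, 6 were higher and 1 lower, beside 30.2% and 30.5% of all tested genes. The median log2 fold change was 0.53. Rara, which encodes a retinoic acid receptor, had 2479, 11711 and 12238 counts (4.7-fold, adjusted p = 2.22e-26, edgeR). Dhrs3, a retinal reductase, had 251, 537 and 671 counts (2.34-fold, adjusted p = 2.04e-07).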

How the data were processed

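RIP-seq libraries of Dox-treated E14 mouse ESCs (1 input, 2 YTHDF2 IP) were grouped by their titles. Per the methods of the study, anti-YTHDF2 was added to cleared cell lysate, whereas the labels describe purified total RNA used in the IP, and which was done could not be told. The table deposited holds raw gene-level counts. The authors aligned reads to mm10 with HISAT2 2.2.1 and, per the file headers, counted them with featureCounts 2.0.3 over RefSeq exons, each mate on its own, without strand, and by default without reads of several places or several genes. The submitters' processing notes also name fastp 0.19.4 and DESeq2 1.40.2. There were 0 columns of other samples and no row without a gene name.

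The analysis used edgeR 4.0.16 in R 4.3.3 (filterByExpr, TMM factors 0.957, 1.02 and 1.02, glmQLFit with the robust option, glmQLFTest) on the whole table, with Benjamini-Hochberg adjustment over 19601 genes. The model had 1 residual degree of freedom, from the IP libraries alone (common dispersion 0.00538). SEs came from the fold change and the F statistic, and the prior count was 0.125. Calls needed a fold change over 2 with an adjusted p-value under 0.05. CPM and TPM were computed from the deposited counts and exonic lengths. Sequences, GC content and motifs were read from GRCm38.p6, in which all 39 members had the same start and end as in the table.

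By the rule for named genes, full statistics were given for the 11 members past the threshold and Hoxc13, a bound replacing the fold change where the input was at 0, and counts, with a fold change or adjusted p for some, for the others. Single values of 1 uncalled member and 1 neighbouring gene are not reported here, although counts, sums and medians include them. The rule allowed members with a mean of at least 1 CPM or past the threshold, 12 at most. The members and gene lists were chosen with earlier results of these data known. Alternatives were DESeq2 1.42.0, total count scaling, other filters, a fixed dispersion of 0.1, halved counts, removal of a loess trend on GC content, and leaving out each IP library. Removal of the GC trend changed the fold changes only and kept the p-values of the main fit.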

Additional observations from a re-analysis of the deposited data

How the results depend on the processing

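The number of enriched Hox genes was 10, and between 7 and 10 with DESeq2, total count scaling, other filters, halved counts and the GC trend removed, but 5 with a fixed dispersion of 0.1, all 5 among the 10. Of those 5, only Hoxa4 and Hoxb13 passed the filter by their input level alone. The depleted count went from 1 to 0 with DESeq2 and with the fixed dispersion. Over all genes the fixed dispersion gave 1577 enriched and 1531 depleted in place of 2936 and 2543. The median log2 fold change of 0.75 moved to 0.55 with the GC trend removed and lay between 0.76 and 0.94 without one IP library. Total count scaling moved the median of all genes to 0.102, that of the members to 0.85, and the cluster sums to 0.94 for HOXA, 0.68 for HOXC and 0.83 for HOXD. Over the 24 members that passed the filter by their input level alone (chosen once the data had been seen) the median was 0.50, with 7 enriched and 1 depleted. Without its most abundant member the sum was 1.11 for HOXA, 1.39 for HOXB, -0.58 (reversed) for HOXC and 1.10 for HOXD, and without Hoxc13 and Hoxc12, likewise added after seeing the data, HOXC was at -0.07 (reversed). At 10 counts, 3 HOXC members were detected in all libraries. Hoxb7 turned from 0.06 to -0.15 with the GC trend removed and Hoxd10 from -0.09 to 0.00 with total count scaling, neither being called. Without one IP library, uncalled members also changed sign, namely Hoxa2 (to -0.31), Hoxb7 (-0.37), Hoxc6 (-0.05), Hoxd3 (-0.05), Hoxd4 (0.03) and Hoxd12 (-0.02), and Hoxd10 reached 0.00. The causes were not tested. Calls of Hoxa4, Hoxa6, Hoxa11 and Hoxb13 held under every alternative that tested them, Hoxa6 failing the filter with halved counts. Of these genes, Hoxa6 and Hoxa11 passed the filter only through the IP libraries, where they had to be high. No paired analysis was possible because only 1 input library was analysed here and it carries no number to pair. With 25 of 39 members under a mean of 50 counts, low counts limit the precision of most values.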

Other observations

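The genes annotated within 100 kb of the clusters numbered 55, of which 21 were tested, 3 were enriched and 2 depleted in edgeR, beside 15.0% and 13.0% of all tested genes, and 2 and 2 in DESeq2, beside 12.5% and 10.6%, with a median log2 fold change of 0.09. Halr1, a long noncoding RNA upstream of HOXA, had 1458, 3479 and 3538 counts in the input and IP replicates 1 and 2 (2.34-fold, adjusted p = 7.26e-16, edgeR), more than any Hox gene. Haglr, an antisense RNA in HOXD, had 6, 31 and 57 counts (7-fold, adjusted p = 0.00245), and passed the filter on low counts only through the IP libraries.

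The depleted neighbours both flank HOXD and encode proteins of other functions. Mtx2, a mitochondrial outer membrane protein, had 2218, 741 and 764 counts, 3.03-fold lower in the IP (adjusted p = 3.03e-16, edgeR). Lnpk, which shapes the endoplasmic reticulum, had 2232, 995 and 963 counts, 2.34-fold lower (adjusted p = 1.98e-13). The 6 microRNA genes within the window had 0 counts in every library.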
